A study of Mus musculus with 6 samples.

Results

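The 46 genes described here encode the core of BMP and TGF-beta signaling. They were taken from a list of gene symbols that was chosen with earlier results of these data known. The list comprises 14 ligands, 10 receptors, 8 Smads, 10 antagonists and latent TGF-beta binding proteins, and 4 target genes. All 46 were present among the 23733 genes of the count table, and 45 had enough counts to be tested. RNA was sequenced from whole femurs of 3 mutant and 3 control mice at 5 weeks of age, with 1 library per mouse. Mutant mice carried the knocked-in Rosa26 mIfitm5 allele, a mutant Ifitm5 cDNA of the kind that causes osteogenesis imperfecta type V, together with Acan-Cre ERT2. This recombinase is driven by the aggrecan promoter of chondrocytes and acts only after tamoxifen, injected at 10 mg/kg; the methods name P10 for these femurs, and the description of the line P10 to P15. Controls are described as littermates with Cre alone, the allele alone or neither. The sources used here give neither the genotype of each control mouse, nor its tamoxifen, nor the sex of any mouse.

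BMPs and TGF-betas are secreted dimers that bring together type I and type II receptor kinases on the cell surface. BMP receptors phosphorylate Smad1, Smad5 and Smad9, while TGF-beta and activin receptors phosphorylate Smad2 and Smad3, and both sets enter the nucleus with Smad4. In bone and growth plate cartilage the BMP branch drives chondrocyte and osteoblast differentiation, whereas TGF-beta is stored in the matrix in latent form. The inhibitory Smads, Smad6 and Smad7, and the Id genes are switched on by the pathway itself, so their transcripts are often read as its output.

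The 6 libraries held between 11473467 and 17058572 counts assigned to genes. Ifitm5, whose mutant and endogenous transcripts are counted together, ranged from 23.4 to 36.7 CPM in mutant mice and from 31.3 to 47.6 CPM in control mice, so it does not separate the groups. Levels are given as CPM, the usual unit in which a gene's counts are divided by the size of its library, with library sizes adjusted by TMM (trimmed mean of M-values). Markers of several cell types differed in direction between the groups. All 7 chondrocyte markers and all 6 neutrophil markers had positive log2 fold changes (mutant over control), and all 6 osteoblast markers had negative ones. Blood lineages shifted as well: all 6 erythroid markers were positive with a median log2 fold change of 2.07, and all 6 megakaryocyte and platelet markers with a median of 1.84. The replicate block, described below, called 6 and 4 of them and all 6 neutrophil markers, against 2.7% of all genes called higher. Without it, 2 erythroid, 5 megakaryocyte and platelet and 6 neutrophil markers had an unadjusted p under 0.05 (edgeR), against 5.06% of all genes that were higher. The erythroid sum was at 4381, 1442 and 650 CPM in mutant mice, against 755, 424 and 254 CPM in control mice, and the groups overlapped. The part of erythroid content in the members' values was not tested. In whole bone, fewer cells of a type and less RNA per cell cannot be told apart. Same-numbered mutant and control mice deviated together from their group means, so the comparison was repeated within same-numbered mice (the replicate block). Its result is printed wherever a call changed. This pairing was inferred from these same data, and no source ties the numbers to litters. The sum of 4 skeletal muscle markers, all with positive log2 fold changes, followed the numbers. It was at 5085, 9724 and 1580 CPM in mutant mice 1, 2 and 3, against 3740, 7126 and 862 CPM in control mice. Its part in the pairing was not tested.

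No member passed an adjusted p under 0.05 by edgeR's quasi-likelihood test, and 0.0% of the 18126 genes tested did. At an unadjusted p under 0.05, 7 of 45 members were lower in mutant femurs, or 15.6%, against 3.49% of all genes tested, and 0 were higher, against 5.06% of all genes. The 7 were the ligand Bmp4, the receptor Acvr1, the signal-carrying Smad1, the inhibitory Smad6 and Smad7, the latency protein Ltbp3 and the target Id3. In 7 members (15.6%) all 3 mutant mice lay below all 3 control mice, against 6.67% of all genes; these were the 7 above with Chrd in place of Ltbp3. In 0 members did they lie above, against 6.54%. The members were chosen with earlier results of these data known, so their shares do not come from an independently chosen set. Of the 45 log2 fold changes 33 were negative, with a median of -0.11, while the median of all genes was 0.0019. DESeq2 called 0 members and 0.651% of all genes, and its lowest adjusted p among members was 0.0982, for Smad6. With the replicate block, Smad6 and Id3 were called lower in mutant femurs, against 0.623% of all genes called lower, and 0 members were called higher, against 2.7% of all genes. Under the block, unadjusted p-values were below 0.05 for 11 members that were lower (24.4%, against 6.76% of all genes) and 2 that were higher (4.44%, against 9.9% of all genes). TMM scaling sets the zero of these values: by library size alone the median of all genes was 0.16, 20 members were negative, 2 members were lower at an unadjusted p under 0.05 (4.44%, against 0.844% of all genes) and 3 were higher (6.67%, against 10.9% of all genes). The members' median lay 0.11 below that of all genes under both scalings.

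**Figure D1:**
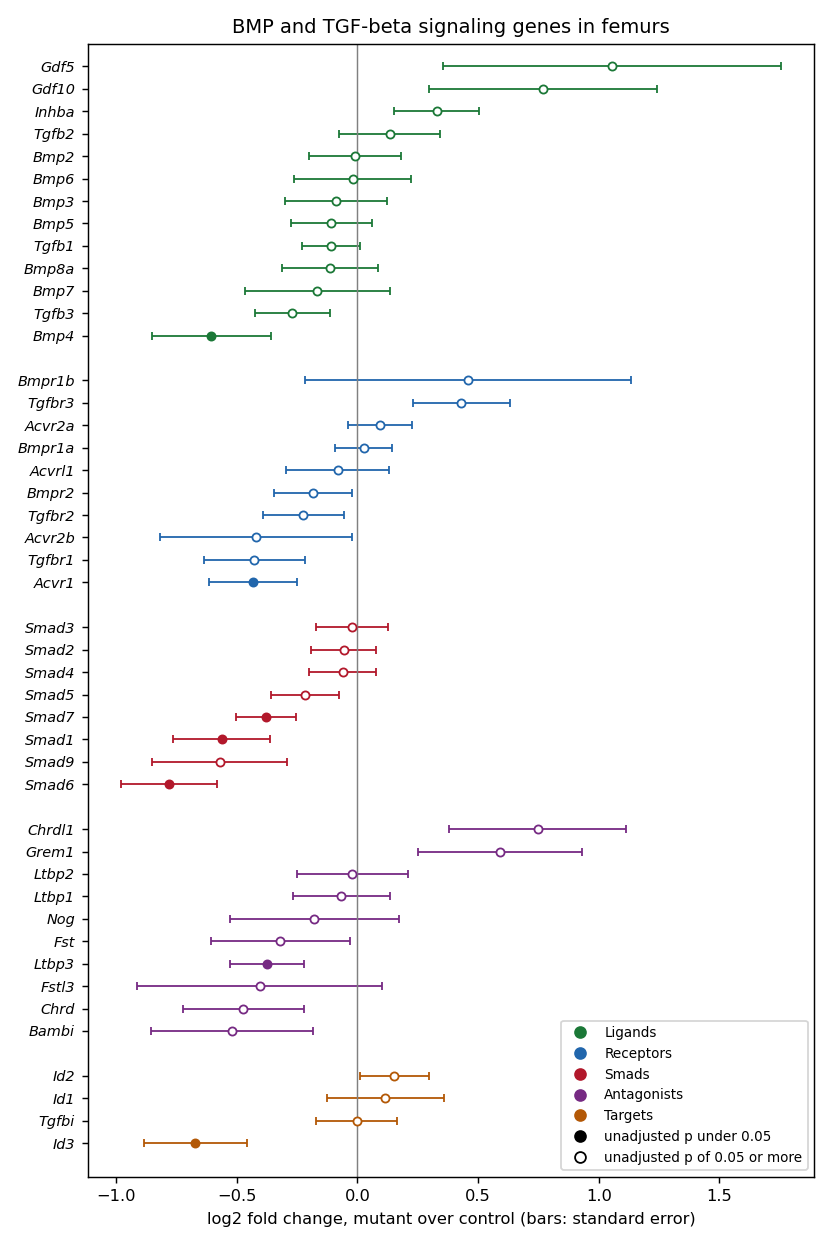
Log2 fold change, mutant over control, of the 45 tested members with its standard error from edgeR (horizontal axis), grouped by class and ordered by size; filled points have an unadjusted p under 0.05. All 8 Smads lie below 0, from -0.78 for Smad6 to -0.022 for Smad3, and the members above 0.5 (Gdf5, Gdf10, Chrdl1 and Grem1) have wide bars.

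Smad6 had the lowest p of all members. It encodes an inhibitory Smad that blocks BMP type I receptors and Smad1, and its gene spans positions 63860341 to 63929793 of chromosome 9 (GRCm39, minus strand). Its level was 18.05, 24.1 and 27.5 CPM in mutant mice 1, 2 and 3, against 38.9, 33.4 and 47.4 CPM in control mice 1, 2 and 3. Every mutant mouse was below every control mouse, and the gap was widest for mutant mouse 1. The log2 fold change was -0.78 (SE, the standard error, 0.20, unadjusted p = 0.00349, adjusted p = 0.520, edgeR), and with the replicate block it was -0.79 (SE 0.15, adjusted p = 0.0191, edgeR). Leaving out each mouse in turn kept the value between -0.92 and -0.63, with an unadjusted p of at most 0.0172.

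Because Smad6 and the Id genes are known direct targets of Smads, the promoter windows of the members were searched for 2 Smad-binding motifs. The windows are those of RefSeq, from 250 bases before to 50 bases after each gene's start, and 30 of the 46 members have one. The palindromic element GTCTAGAC was present in 70 of 32851 windows of the genome (0.213%) and, among the 30 members, in Smad6. The GC-rich element GGCGCC was present in 3898 windows (11.9%) and in 10 of 30 members: Gdf10, Bmpr1a, Bmpr2, Tgfbr1, Smad5, Smad9, Grem1, Chrd, Id2 and Tgfbi. A member counts if any of its windows holds the motif, so counts of members and shares of windows are not on the same basis. Both motifs read the same on the opposite strand and do not overlap each other. The window of Id3 held neither. Such a match is a description of the letters and not a site shown to be bound. The stretches below show the only member window with the palindrome and, for the other motif, a Smad, an antagonist and a target, each of 30 bases on the strand of its gene with the motif in capitals. They were located in GRCm39 by exact match, at chr9:63929327-63929356 (minus strand) for Smad6, chr3:54662940-54662969 (plus strand) for Smad9, chr16:20551662-20551691 (plus strand) for Chrd and chr12:25146305-25146334 (minus strand) for Id2. Each overlaps a stretch that some GENCODE transcript annotates as untranslated exon. The Smad9 stretch does so only in part, since its annotated gene begins at position 54662963, after the motif. The motif begins 4 bases before the RefSeq start of Smad6, 51 before that of Smad9, 203 before that of Chrd and 231 before that of Id2.
Smad6: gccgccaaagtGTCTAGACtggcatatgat
Smad9: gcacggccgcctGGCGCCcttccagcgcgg
Chrd: cgggccagagccGGCGCCtagggcactaaa
Id2: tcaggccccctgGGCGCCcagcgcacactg

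Id3 was the target gene with the largest difference. Id proteins bind basic helix-loop-helix factors and hold back differentiation, and the gene spans positions 135870808 to 135873066 of chromosome 4 (GRCm39, plus strand). It was at 32.4, 42.1 and 55.2 CPM in mutant mice 1, 2 and 3, against 56.6, 68.7 and 81.3 CPM in control mice 1, 2 and 3. All mutant mice were below all control mice, although mutant mouse 3 nearly reached control mouse 1. The log2 fold change was -0.67 (SE 0.21, unadjusted p = 0.0117, adjusted p = 0.545, edgeR), and -0.69 with the replicate block (SE 0.12, adjusted p = 0.0097, edgeR). Within same-numbered mice the log2 ratios of Id3 were close to each other, at -0.81, -0.71 and -0.56. Without control mouse 3 the unadjusted p was 0.0520.

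The other target genes had log2 fold changes near 0. Id1, the Id gene most often used as a BMP readout, was at 14.8, 12.3 and 16.2 CPM in mutant mice and 11.6, 18.1 and 10.3 CPM in control mice, and the groups overlapped (log2 fold change 0.12, SE 0.24). Id2 was at 26.1, 28.3 and 27.3 CPM in mutant mice and 22.0, 26.2 and 25.3 CPM in control mice, with 1 control mouse inside the mutant range (0.15, SE 0.14). Tgfbi, a matrix protein gene named for its induction by TGF-beta, was at 60.6, 47.7 and 61.1 CPM in mutant mice, against 48.0, 67.9 and 53.9 CPM in control mice, for a log2 fold change of -0.0030. Within each library the ratio of Id3 to Id1 counts was 2.19, 3.43 and 3.4 in mutant mice and 4.86, 3.79 and 7.89 in control mice. This ratio does not depend on how libraries are scaled, and it was lower in every mutant mouse than in every control mouse. It was chosen with the values known and is given without a test.

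**Figure D2:**
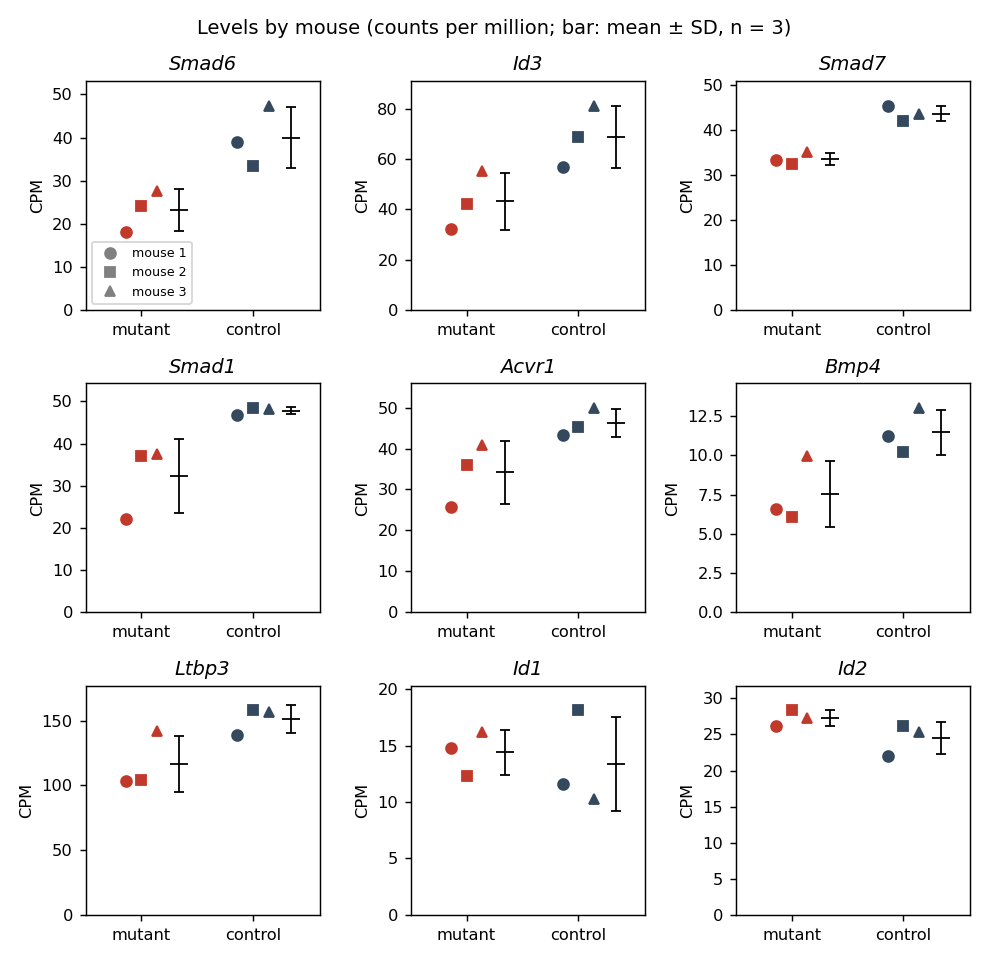
CPM (vertical axis, from 0) of 9 members in each mouse, with mutant mice in red at the left and control mice in dark blue at the right of each panel, symbols for mouse number and bars for mean ± SD (n = 3). The groups are separate for Smad6, Id3, Smad7, Smad1, Acvr1 and Bmp4, while for Ltbp3 the mutant mouse at 142 CPM lies above the lowest control mouse at 139 CPM, and Id1 and Id2 overlap.

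All 8 Smad genes had negative log2 fold changes, with a median of -0.30, and 3 of them had an unadjusted p under 0.05. By library size alone, Smad2, Smad3 and Smad4 turned positive. Relative to the osteoblast markers described below, Smad2, Smad3, Smad4, Smad5 and Smad7 were positive, and Smad1, Smad6 and Smad9 stayed negative. Smad7, the inhibitory Smad that acts on TGF-beta and BMP receptors, was at 33.2, 32.3 and 35.0 CPM in mutant mice, against 45.3, 41.9 and 43.4 CPM in control mice. Its groups were tight and well apart, averaging 33.5 ± 1.36 CPM in the mutant mice and 43.6 ± 1.71 CPM in the controls (SD, n = 3 each), for a log2 fold change of -0.38 (SE 0.13, unadjusted p = 0.0144, adjusted p = 0.545, edgeR).

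Smad1, which carries the BMP signal, was at 22.2, 37.1 and 37.6 CPM in mutant mice, against 46.7, 48.4 and 48.2 CPM in control mice. The control mice were nearly alike and mutant mouse 1 was far below the rest. The log2 fold change of Smad1 was -0.56 (SE 0.20, unadjusted p = 0.0205, adjusted p = 0.563, edgeR), and -0.36 without mutant mouse 1. Smad9, a further BMP Smad, was at 8.63, 10.1 and 18.2 CPM in mutant mice and 19.3, 16.05 and 19.7 CPM in control mice, with mutant mouse 3 inside the control range. Its log2 fold change was -0.57 (SE 0.28, adjusted p = 0.612, edgeR), and it was -0.37 without mutant mouse 1 and -0.97 without mutant mouse 3.

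Smad5, the most abundant Smad gene per length and the third BMP Smad, was at 112, 129 and 137 CPM in mutant mice, against 130, 142 and 166 CPM in control mice (log2 fold change -0.22, SE 0.14). These ranges overlapped only where mutant mouse 3 exceeded control mouse 1. Smad3, a TGF-beta Smad, was at 68.2, 85.9 and 90.4 CPM in mutant mice and 73.5, 83.4 and 91.4 CPM in control mice, a difference of -0.022 (SE 0.15). Smad2 and the common partner Smad4 were also near 0, with log2 fold changes of -0.058 and -0.061. The ratio of Smad6 to Smad5 counts within each library, again chosen with the values known, was 0.162, 0.187 and 0.201 in mutant mice and 0.298, 0.235 and 0.285 in control mice. As with Id3 over Id1, no mutant mouse reached the lowest control mouse.

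Of 13 tested ligands, 9 had negative and 4 positive log2 fold changes, with a median of -0.089, and 1 of 13 had an unadjusted p under 0.05. Bmp4, a BMP of the perichondrium and the osteoblast lineage, was at 6.57, 6.10 and 9.93 CPM in mutant mice, against 11.2, 10.2 and 13.0 CPM in control mice. The groups did not overlap, but mutant mouse 3 and control mouse 2 lay close together. The log2 fold change of Bmp4 was -0.61 (SE 0.25, unadjusted p = 0.0362, adjusted p = 0.570, edgeR). Its exons share 1178 bases with an lncRNA gene on the opposite strand, Gm15222, and no source used here says whether reads were counted by strand.

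The abundant ligands were nearly level between the groups. Tgfb1, the main TGF-beta of bone matrix, was at 117, 123 and 112 CPM in mutant mice and 118, 124 and 137 CPM in control mice (log2 fold change -0.11, SE 0.12). Bmp3, which restrains bone formation in mice, was at 137, 137 and 198 CPM in mutant mice and 146, 141 and 214 CPM in control mice (-0.089, SE 0.21). For Bmp3 the third mouse was the highest of both groups, and the same-numbered mice differed by no more than 0.11 on the log2 scale.

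With all 6 mice, Tgfb3 and Inhba passed an unadjusted p under 0.05 once the block was in the fit, and not without it. Tgfb3, another TGF-beta isoform, was at 49.1, 52.0 and 62.7 CPM in mutant mice, against 55.5, 70.2 and 71.7 CPM in control mice (log2 fold change with the block -0.27, adjusted p = 0.269, edgeR). Each mutant mouse was below the control mouse of its number although the ranges overlapped. Inhba, which encodes the subunit of activin A, was at 43.5, 39.2 and 39.9 CPM in mutant mice, against 27.9, 28.6 and 41.1 CPM in control mice (0.35 with the block, adjusted p = 0.280, edgeR). Control mouse 3 lay inside the mutant range.

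Gdf5 and Gdf10 had the largest positive values among the ligands, and mutant mouse 2 went the other way in both. Gdf5, a ligand of forming joints and articular cartilage, was at 5.15, 0.497 and 3.70 CPM in mutant mice and 1.75, 1.04 and 1.66 CPM in control mice. Mutant mice 1 and 3 were thus above all control mice and mutant mouse 2 was below all of them, and the log2 fold change of 1.06 had a standard error of 0.70 (adjusted p = 0.683, edgeR). Gdf10, also called Bmp3b, had a log2 fold change of 0.77 (SE 0.47), with 22.7, 5.54 and 18.5 CPM in mutant mice and 11.4, 8.97 and 7.09 CPM in control mice. The chondrocyte marker sum was also lower in mutant mouse 2 than in the other mutant mice, at 4122, 1896 and 5743 CPM in mutant mice 1, 2 and 3, against 1712, 1670 and 1333 CPM in control mice. The part of chondrocyte content in the values of Gdf5 and Gdf10 was not tested. Bmp2, Bmp5, Bmp6, Bmp7, Bmp8a and Tgfb2 had log2 fold changes between -0.17 and 0.13. Gdf6 was not tested, with 2, 5 and 32 counts in mutant mice and 1, 0 and 13 counts in control mice, where a count of 0 allows up to 3 counts.

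Of the 10 receptor genes, 6 were negative and 4 positive, with a median of -0.13. Acvr1, the BMP type I receptor whose activating mutations cause fibrodysplasia ossificans progressiva in humans, was at 25.6, 36.0 and 40.8 CPM in mutant mice, against 43.3, 45.3 and 49.9 CPM in control mice. No mutant mouse reached the control range, and mutant mouse 1 was the lowest. The log2 fold change was -0.43 (SE 0.18, unadjusted p = 0.0406, adjusted p = 0.570, edgeR). Without mutant mouse 1 it was -0.27. Acvr1 shares 259 exon bases with Upp2 on the opposite strand.

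Tgfbr1 and Tgfbr2 were the most abundant receptors per length. Tgfbr1, the type I receptor, was at 197, 231 and 285 CPM in mutant mice and 277, 267 and 415 CPM in control mice. The ranges overlapped, since mutant mouse 3 exceeded control mice 1 and 2, but each mutant mouse was below the control mouse of its number. Its log2 fold change was -0.43 without the block (adjusted p = 0.614, edgeR) and -0.41 with it (adjusted p = 0.0737, edgeR). Without control mouse 3 it was -0.19. Tgfbr2, the type II receptor, was at 194, 193 and 248 CPM in mutant mice, against 211, 237 and 294 CPM in control mice (log2 fold change -0.22, SE 0.17). Mutant mouse 3 was again inside the control range.

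The type III co-receptor Tgfbr3 had a log2 fold change of 0.43 (SE 0.20, adjusted p = 0.596, edgeR), with the highest level in mutant mouse 1. Bmpr1b, a BMP type I receptor of cartilage condensations, was at 3.01, 1.63 and 1.30 CPM in mutant mice and 1.25, 2.76 and 0.370 CPM in control mice. Its groups overlapped widely, and its log2 fold change of 0.46 had a standard error of 0.68. Bmpr1a and Acvr2a were within 0.10 of 0, Bmpr2 and Acvrl1 were at -0.18 and -0.083, and the scarce Acvr2b was at -0.42 (SE 0.40).

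**Figure D3:**
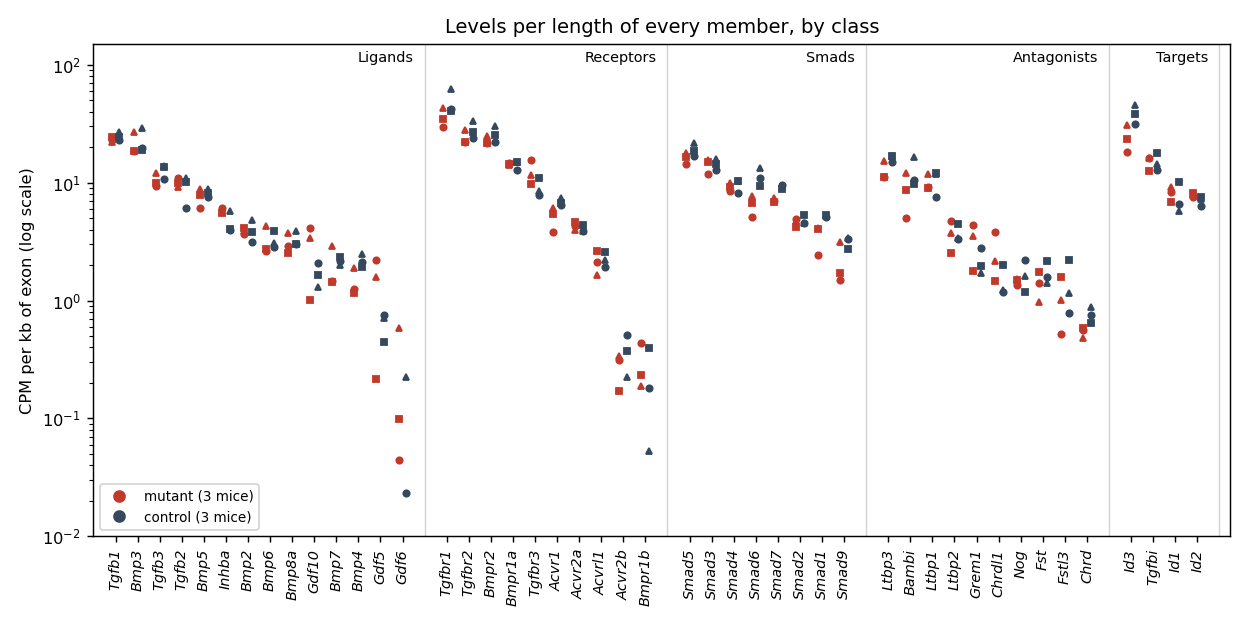
Level of each of the 46 members in CPM per kb of merged exon (vertical axis, log scale) in every mouse, mutant in red and control in dark blue, by class and in falling order of the mean; symbols mark the mouse number, and the value of 0 for Gdf6 in control mouse 2 cannot be drawn. Tgfbr1 (mean 42.1) and Id3 (mean 31.3) stand highest, and Gdf6 and Bmpr1b lowest.

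Per length of merged exons, which allows genes to be compared with each other, Tgfbr1 was the most abundant member, at 35.9 ± 6.73 CPM per kb in mutant and 48.3 ± 12.5 CPM per kb in control mice (SD, n = 3 each). Id3 followed with 24.1 ± 6.38 CPM per kb in mutant and 38.4 ± 6.87 CPM per kb in control mice. Smad6 and Smad7 had similar mean levels over all mice, 8.90 and 8.12 CPM per kb, about the level of Id1 at 7.83. Bmp4 was scarce, at 1.81 CPM per kb, and Chrd was scarcer still at 0.649. Among the ligands, Tgfb1 and Bmp3 stood highest, at 24.0 and 21.9 CPM per kb.

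Among the antagonists and latency proteins, 8 of 10 log2 fold changes were negative, with a median of -0.25. Ltbp3, which holds latent TGF-beta in the matrix and is needed for normal skeletal growth, was at 104, 104 and 142 CPM in mutant mice, against 139, 158 and 157 CPM in control mice. Mutant mouse 3 just exceeded control mouse 1, and the other mutant mice were well below. Its log2 fold change was -0.38 (SE 0.15, unadjusted p = 0.0374, adjusted p = 0.570, edgeR). Ltbp1 and Ltbp2 were at -0.066 and -0.021 on the same scale.

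Bambi, a decoy receptor that the pathway induces, was at 25.6, 44.5 and 61.5 CPM in mutant mice and 53.9, 49.7 and 85.1 CPM in control mice. Every mutant mouse was below the control mouse of its number, and the ranges overlapped through mutant mouse 3. The log2 fold change was -0.52 (SE 0.34, adjusted p = 0.682, edgeR) and with the block -0.56 (adjusted p = 0.0976, edgeR). It was -0.23 without control mouse 3, -0.25 without mutant mouse 1 and -0.85 without mutant mouse 3. Chrd, the BMP-binding protein chordin, was at 4.67, 4.83 and 3.96 CPM in mutant mice, against 6.16, 5.26 and 7.21 CPM in control mice. Its groups did not overlap, but its log2 fold change of -0.47 had an unadjusted p of 0.0915 (adjusted p = 0.629, edgeR). Chrd shares 1169 exon bases with Thpo on the opposite strand.

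Grem1 and Chrdl1, secreted BMP antagonists, were the members of this class with positive values, and like Gdf5 they were high in mutant mice 1 and 3. Grem1 was at 18.3, 7.38 and 14.7 CPM in mutant mice and 11.6, 8.11 and 7.15 CPM in control mice (log2 fold change 0.59, SE 0.34). Mutant mouse 2 lay among the control mice. Chrdl1 was at 25.6, 9.93 and 14.7 CPM in mutant mice and 7.99, 13.6 and 8.38 CPM in control mice (log2 fold change 0.75, SE 0.37, adjusted p = 0.615, edgeR). In DESeq2, Chrdl1 was the only higher member at an unadjusted p under 0.05 (adjusted p = 0.531). Without mutant mouse 2, Gdf5, Gdf10, Tgfbr3, Grem1 and Chrdl1 were higher at an unadjusted p under 0.05 (11.1% of members, against 4.24% of all genes). Their log2 fold changes ran from 0.57 for Tgfbr3 to 1.56 for Gdf5, and none passed the adjusted threshold in edgeR. The summed markers of marrow stroma and adipocytes (Cxcl12, Lepr, Adipoq and Kitl) were also lowest in mutant mouse 2 among the mutant mice. This sum was at 641, 426 and 511 CPM in mutant mice, against 636, 565 and 452 CPM in control mice. Of the 4 markers 2 were positive and 2 negative, and their part in these members was not tested. Nog, Fst and Fstl3, further antagonists of BMPs or activins, were scarce and were at -0.18, -0.32 and -0.40 on the log2 scale with standard errors from 0.29 to 0.51.

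**Figure D4:**
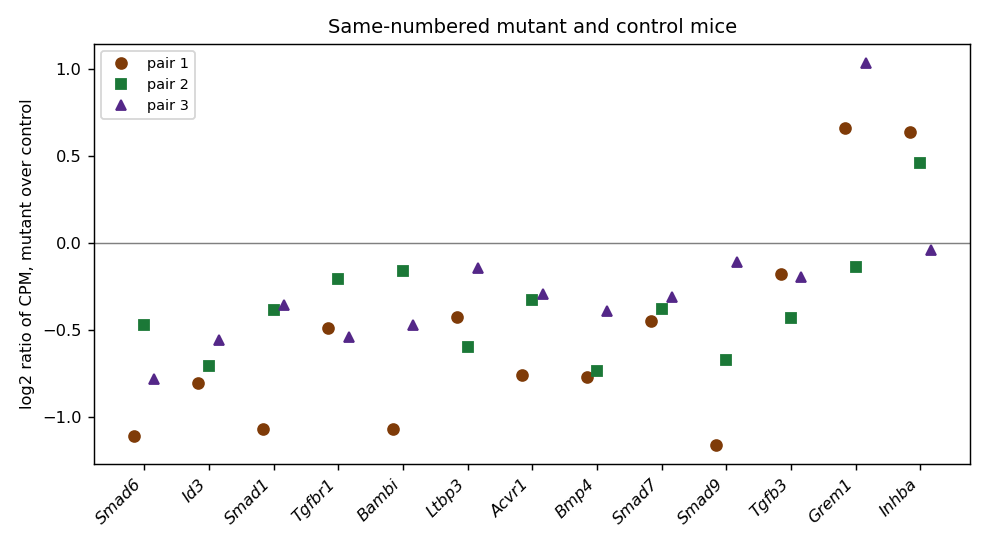
Log2 ratio of CPM between the mutant and the control mouse of the same number (vertical axis), for the 13 members that had an unadjusted p under 0.05 when the block was fitted; the 3 symbols are the 3 pairs. For Id3 the pairs lie between -0.81 and -0.56, for Smad6 between -1.11 and -0.47, and for Grem1 and Inhba 1 of 3 pairs falls below 0.

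All 6 osteoblast markers had negative log2 fold changes, and 1 of them, Sp7, had an unadjusted p under 0.05. The summed osteoblast markers (Col1a1, Bglap, Sp7, Alpl, Ibsp and Runx2) were at 42431, 66838 and 76337 CPM in mutant mice, against 88593, 85264 and 123371 CPM in control mice, without overlap, and no marker was at 0 in any library. The sum is mostly Col1a1; the mean log2 level of the 6 markers overlapped between the groups, and the median log2 fold change of the 6 was -0.35. Members were therefore also set relative to the mean log2 level of these markers in the same library, an alternative added after the data were seen. On this scale Smad6 was at -5.16, -5.11 and -5.28 in mutant mice, against -4.65, -4.88 and -4.88 in control mice, a difference of -0.38 on the log2 scale, and the groups stayed apart. Id3 was at -4.33, -4.31 and -4.29 in mutant mice, against -4.11, -3.85 and -4.11 in control mice, a difference of -0.29, also without overlap. The mutant values of both genes were closer to each other on this scale than in log2 CPM. Of the other members whose groups did not overlap in CPM, none stayed apart: the differences were -0.20 for Bmp4 and Smad1, -0.056 for Acvr1, -0.026 for Chrd and 0.023 for Smad7. Ltbp3, which already overlapped in CPM, was at 0.0092. The mean log2 level of the markers was 9.37, 9.73 and 10.1 in mutant mice, against 9.95, 9.97 and 10.5 in control mice. It is subtracted from every gene of a library, so this scale moved the differences of all genes upward by the same amount. Over the 45 tested members the median difference was 0.29, and 2 of these members had all mutant mice above all control mice. These were Bmp3, with a difference of 0.31, and Inhba, with 0.74, and the untested Gdf6, whose counts were near 0, also lay above. Of the 45 tested members, 2 thus lay below and 2 above without overlap. The share of all genes doing so on this scale was not computed, while in CPM it was 6.67% below and 6.54% above.

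Endothelial cells also express Smad6, Smad7 and Id3. The endothelial marker sum was at 420, 423 and 376 CPM in mutant mice, against 383, 443 and 415 CPM in control mice, and the groups overlapped. The sum covers opposite values: of 5 markers 4 were negative, Cdh5 was at 112, 126 and 115 CPM in mutant mice, against 131, 154 and 150 CPM in control mice (log2 fold change -0.30, adjusted p = 0.570, edgeR), and Vwf, which megakaryocytes also make, was at 0.87 (adjusted p = 0.563, edgeR). The mean log2 level of the 5 markers was 6.19, 6.27 and 6.08 in mutant mice and 6.07, 6.26 and 6.15 in control mice. As it hardly differed between the groups, differences relative to it stay near the log2 fold changes. They therefore do not account for endothelial content, whose part was not tested. Relative to this mean, the differences were -0.79 for Smad6, -0.70 for Id3, -0.61 for Smad1, -0.44 for Chrd and -0.39 for Smad7, each without overlap. They were -0.62 for Bmp4, -0.47 for Acvr1 and -0.40 for Ltbp3, where the groups overlapped, and Acvr2a and Id2 lay above the control mice without overlap. Of the 45 tested members, 5 thus lay below and 2 above, and the share of all genes doing so on this scale was not computed. The 5 macrophage and osteoclast markers were all negative (median log2 fold change -0.49), and their sum was at 1467, 1991 and 2617 CPM in mutant mice, against 1943, 2400 and 4132 CPM in control mice. Their part in the lower members was not tested.

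**Figure D5:**
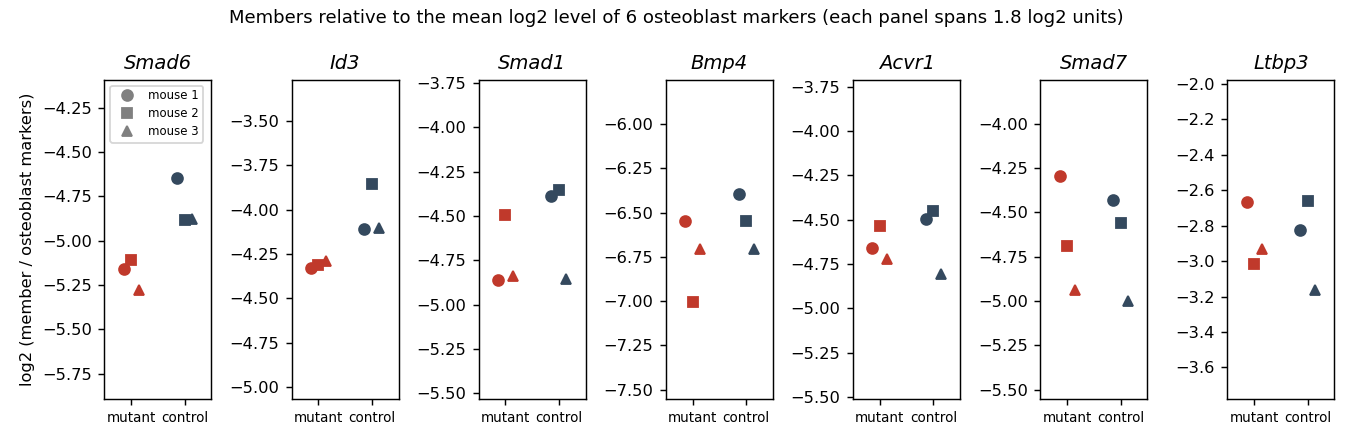
Level of 7 members in each mouse relative to the mean log2 level of 6 osteoblast markers in the same library (vertical axis, log2 units, each panel spanning the same height), with mutant mice in red at the left and control mice in dark blue at the right. Smad6 and Id3 remain apart between the groups, while Smad1, Bmp4, Acvr1, Smad7 and Ltbp3 overlap.

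Beyond the 46 members, 78 further genes of the pathway were listed, of which 71 were in the table and 60 were tested. Of these, 3 were higher (5%, against 5.06% of all genes) and 4 lower (6.67%, against 3.49%) in mutant femurs at an unadjusted p under 0.05, so the share of higher genes was near that of all genes. Of their log2 fold changes 33 of 60 were negative, the median log2 fold change was -0.062, and 0 passed the adjusted threshold in edgeR or DESeq2. The lower genes whose groups did not overlap were Bmp1, a metalloprotease that cleaves chordin and procollagens (log2 fold change -0.67, SE 0.23), Smurf1, a ubiquitin ligase for BMP Smads (-0.43, SE 0.14), and Fkbp1a, which binds type I receptors (-0.30, SE 0.13). Bmp1 was at 230, 339 and 407 CPM in mutant mice, against 489, 436 and 628 CPM in control mice, and it was called with the replicate block (adjusted p = 0.0249, edgeR).

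The higher genes without overlap were Ccn1, a matricellular protein gene, and Bmper, a BMP-binding protein. Ccn1 was at 61.9, 93.6 and 77.5 CPM in mutant mice, against 35.4, 60.6 and 58.8 CPM in control mice (log2 fold change 0.59, SE 0.23). It was called with the block, as was Usp15, a deubiquitinase of receptors and Smads (adjusted p = 0.0204 and 0.0336, edgeR). Bmper had a log2 fold change of 0.64 (SE 0.27). The remaining genes at an unadjusted p under 0.05, named after their values were seen, were Hey1, which was lower (-0.56), and Lrrc32, which was higher (0.59), and the groups overlapped for both. Ccn2, often used as a TGF-beta readout and likewise chosen after its values were seen, was at 0.11 (SE 0.20) on the log2 scale.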

How the data were processed

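Total RNA from pulverized femurs of 3 mutant and 3 control mice was depleted of ribosomal RNA, sequenced, and aligned by the authors to mm39 with STAR. Partek is named in the submitters' processing notes. The authors deposited estimated counts per gene, of which 70.7% were exactly whole, with no gene below a sum of 10 counts. The sources used here give neither the annotation and versions nor whether reads were counted by strand.

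Counts were rounded. Identifiers were matched to GENCODE vM39 on GRCm39 (23572 of 23733 matched), which also gave exon lengths and overlaps. Genes were kept by filterByExpr (minimum count 10, total 15), leaving 18126. Libraries of 11473467 to 17058572 counts were scaled by TMM (factors 1.10, 1.01 and 1.06 in mutant and 0.952, 0.931 and 0.952 in control mice 1 to 3), at which 10 counts correspond to 0.617 to 0.863 CPM. The main comparison was the robust quasi-likelihood test of edgeR, with Benjamini-Hochberg adjustment over all genes tested. With 3 against 3 mice, an exact two-sided permutation test of 1 value cannot go below 0.1. No source says whether mice of a group came from separate litters, so p-values measure the spread between these mice only. R 4.3.3, edgeR 4.0.16, limma 3.58.1, DESeq2 1.42.0, Python 3.11.15, pandas 2.3.3 and matplotlib 3.10.9 were used. The fits were tested on simulated data.

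The labels number the mice 1 to 3 in each group. Deviations of same-numbered libraries from their group means correlated across genes at 0.154, 0.212 and 0.465, each over a limit of 0.1, so the numbers were treated as pairs; mutant mouse 1 correlated more with control mouse 2 (0.202). No source ties the numbers to litters. Alternatives were DESeq2, library size alone, the replicate block, median-ratio size factors, no robust estimation, limma-voom with quality weights, no filter, scaling that ignored the 10 most abundant genes, a stricter filter (at least 1 CPM in 3 libraries, mean count of at least 20), each mouse left out, and, added after the data were seen, levels relative to osteoblast or endothelial markers on log2(CPM + 0.5).

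The members and the gene and marker lists were chosen with earlier results of these data known. Values in every mouse are given for members with an unadjusted or adjusted p under 0.05 in edgeR, with the block or in DESeq2, members whose groups do not overlap and, per class, the 2 most abundant per length and the largest fold change at a mean of at least 1 CPM; Id1 and Id2 were added after their values were seen. Other pathway genes were named at an unadjusted p under 0.05 without overlap, other exceptions as stated; Usp15 was named for its call with the block. Promoter windows came from RefSeq for GRCm38.p6, and 16 members were not searched.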

Additional observations from a re-analysis of the deposited data

How the results depend on the processing

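The 7 members lower at an unadjusted p under 0.05 became 2 by library size alone, 11 with the replicate block and between 3 (without mutant mouse 2 or control mouse 3) and 12 (without mutant mouse 3) with each mouse left out, fewer mice being fitted there. The genes lower over the whole table moved as well: they numbered 633 in the main comparison, 153 by library size alone, 1225 with the block, 1273 without mutant mouse 3, and 369 and 336 when mutant mouse 2 or control mouse 3 was left out. Higher members numbered 3 by library size alone, 1 in DESeq2, 1 in limma-voom with quality weights, 2 with the block, and 0 to 5 with a mouse left out, 5 of them without mutant mouse 2. Shares of members that were higher stood at 6.67% by library size alone, against 10.9% of all genes, and 4.44% with the block, against 9.9%. In DESeq2 and limma-voom the share of members was 2.22%, against 5.7% and 6.28% of all genes. Without mutant mouse 2 it was 11.1%, against 4.24% of all genes. The block called 2 members and 602 genes in all, DESeq2 118 genes, and the fits without a mouse 0 to 8 genes (8 without mutant mouse 2); beside the calls of Smad6 and Id3 the block changed no other member's call at the adjusted threshold. Smad6 kept an unadjusted p under 0.05 with each mouse left out, while the highest p was 0.0522 for Smad7, 0.0520 for Id3, 0.0552 for Smad1, 0.122 for Bmp4, 0.131 for Acvr1 and 0.149 for Ltbp3.

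Several members changed sign with the setting, and not all of them were near 0 in the main comparison. There Gdf5 was at 1.06, Bmpr1b at 0.46, Fstl3 at -0.40 and Smad7 at -0.38. By library size alone log2 fold changes were 0.15 for Bmp2, 0.073 for Bmp3, 0.050 for Bmp5, 0.14 for Bmp6, 0.051 for Bmp8a, 0.052 for Tgfb1, 0.078 for Acvrl1, 0.11 for Smad2, 0.14 for Smad3, 0.10 for Smad4, 0.099 for Ltbp1, 0.16 for Ltbp2 and 0.17 for Tgfbi, where the median of all genes was 0.16. With quality weights they were 0.048 for Bmp2, -0.011 for Gdf5 and -0.024 for Id1, and with the block 0.0074 for Bmp2 and 0.0036 for Tgfbi. Relative to osteoblast markers, where the differences of all genes moved upward, they were 0.023 for Smad7 and 0.0092 for Ltbp3. Most other members that were negative in the main comparison also turned positive on this scale. Among them were Smad5 at 0.18, Bmpr2 at 0.22, Tgfbr2 at 0.18, Tgfb3 at 0.13, Fst at 0.086 and Nog at 0.28. Those that stayed negative were Bmp4, Acvr1, Tgfbr1, Smad1, Smad6, Smad9, Chrd, Bambi and Id3. With each mouse left out in turn the ranges were -0.16 to 0.17 for Bmp2, -0.29 to 0.14 for Bmp3, -0.23 to 0.022 for Bmp5, -0.28 to 0.13 for Bmp6, -0.59 to 0.0076 for Bmp7, -0.29 to 0.021 for Bmp8a, -0.10 to 0.30 for Tgfb2, -0.060 to 0.065 for Bmpr1a, -0.027 to 1.32 for Bmpr1b, -0.27 to 0.071 for Acvrl1, -0.12 to 0.029 for Smad2, -0.12 to 0.089 for Smad3, -0.37 to 0.059 for Nog, -0.85 to 0.099 for Fstl3, -0.27 to 0.047 for Ltbp1, -0.23 to 0.18 for Ltbp2, -0.042 to 0.40 for Id1 and -0.12 to 0.15 for Tgfbi. The cause was not tested. Apart from these and the members named above, median-ratio size factors, the other filters and the fit without robust estimation changed no direction. Standard errors from 0.12 to 0.70 limit what can be told for the members, most of all for Gdf5, Bmpr1b, Fstl3 and Gdf10.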
